A study of Mus musculus with 18 samples.

Results

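The members of the comparison were the whole brains of Mt-KO pups, homozygous (-/-) for a knockout of metallothionein, that had received lead or saline. They were chosen by title, and they account for 6 of the 18 deposited columns and for 2 of the 6 arrays, since each array was summarised by 3 algorithms. The Mt-KO line had been backcrossed to C57BL/6J for at least 7 generations, and a brother-sister cross then gave the +/+, +/- and -/- genotypes. Per the labels, the lead pups received lead acetate at 50 mg/kg. There were 2 injections on each of postnatal days 7 and 8, separated by 4 h, and the brain was removed 6 h later than the final dose. Weight-matched controls received saline on the same schedule. RNA of 5 pups, labelled male and female, was pooled for each array of an Affymetrix mouse 3' expression type. The labels do not say which metallothionein genes, or which parts of them, were altered, and no allele other than the knockout is given.

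Each side of the comparison was therefore 1 pool on 1 array. There was no replicate, no error could be estimated, and every difference below is a description of these 2 pools with no test. A difference is the RMA value (log2) of the lead array minus that of the saline array, less the median of that difference over the genes examined, which was 0.09 in this pair. The genes examined were 10528 autosomal genes in the upper 60% by mean RMA value. In bulk tissue, fewer cells of a type and less RNA per cell cannot be told apart.

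Metallothioneins are short proteins rich in cysteine, whose thiols hold zinc and copper as well as cadmium and mercury. Mt1 and Mt2 are made in many tissues, and in brain mainly in astrocytes, whereas Mt3 is largely a brain form and Mt4 a form of stratified epithelium. Mt1, Mt2 and the gene of the zinc exporter Slc30a1 are classic targets of the zinc-sensing factor MTF1, which binds metal response elements in their promoters. Lead can take the place of calcium and zinc in proteins, and blocks enzymes of heme synthesis. The second postnatal week is when synapses form, myelin is laid down and granule cells of the mouse cerebellum are still born from dividing precursors.

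The promoters of Mt1, Mt2 and Slc30a1 are shown because these genes are known to answer metals through metal response elements. The windows run from 250 bases before to 50 bases after the gene start in RefSeq annotation on GRCm38.p6, at chr8:94178839-94179138 for Mt1, chr8:94172368-94172667 for Mt2 and chr1:191906531-191906830 for Slc30a1, all on the plus strand. Capitals mark the core of the metal response element, TGCACNC or TGCGCNC, on either strand.
Mt1: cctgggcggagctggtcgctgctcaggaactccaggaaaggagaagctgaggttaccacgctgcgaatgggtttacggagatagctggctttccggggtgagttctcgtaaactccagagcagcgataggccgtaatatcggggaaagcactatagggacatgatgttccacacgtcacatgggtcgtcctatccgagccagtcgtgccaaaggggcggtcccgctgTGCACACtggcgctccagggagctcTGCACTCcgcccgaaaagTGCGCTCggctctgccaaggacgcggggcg
Mt2: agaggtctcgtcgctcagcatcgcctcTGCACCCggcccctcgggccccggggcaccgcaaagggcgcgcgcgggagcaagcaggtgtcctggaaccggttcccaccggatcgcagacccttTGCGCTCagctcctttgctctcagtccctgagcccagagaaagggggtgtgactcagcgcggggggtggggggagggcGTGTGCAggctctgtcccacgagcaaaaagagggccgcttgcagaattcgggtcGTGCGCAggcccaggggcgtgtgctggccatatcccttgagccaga
Slc30a1: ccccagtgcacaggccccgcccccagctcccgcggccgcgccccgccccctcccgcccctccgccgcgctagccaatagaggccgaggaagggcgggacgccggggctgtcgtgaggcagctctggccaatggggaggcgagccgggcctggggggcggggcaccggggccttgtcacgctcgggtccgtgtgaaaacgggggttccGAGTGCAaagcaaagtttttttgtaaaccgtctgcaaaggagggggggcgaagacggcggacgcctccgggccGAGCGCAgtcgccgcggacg
The Mt1 window held 3 matches, the Mt2 window 4 and the Slc30a1 window 2. Among 32851 windows of 300 bases, 25.7% held at least 1 match, 7.11% at least 2, 1.97% at least 3 and 0.517% at least 4. A match describes letters and is no evidence of binding.

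These genes lay close to the median gene in the Mt-KO pair, and the signs for Mt1 and Slc30a1 turned to 0.04 and 0.06 with GC-RMA. Mt1 measured 11.71 (log2) in the lead pool and 11.68 in the saline pool, a difference of -0.06 from the median gene. Mt2 measured 11.82 and 11.87, a difference of -0.14. The same probe sets gave differences of 0.31 for Mt1 and 0.32 for Mt2 in the wild-type (+/+) pair, and 0.27 and 0.07 in the heterozygous (+/-) pair. The signals of Mt1 and Mt2 in the Mt-KO pools were thus not at the floor of the array, and whether their probes lie in the altered part of the genes is not given in the sources used here. A second, dimmer Mt1 probe set gave -0.18 in the Mt-KO pair, 0.49 in the wild-type pair and -0.15 in the heterozygous pair. The direction of Mt1 in the heterozygous pair therefore depended on the probe set. Mt3 measured 12.98 with lead and 12.88 with saline, a difference of 0.00. Mt4 measured 6.19 and 6.39 and was too dim to be examined. Slc30a1 differed by -0.02. Over the 8507 examined genes with a promoter window, the median difference was -0.01 for the 4914 genes with no match, 0.01 for the 2366 with 1 match, 0.01 for the 874 with 2 and 0.01 for the 353 with 3 or more.

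Sex-linked transcripts lay far apart between the pools, though the labels give both pools as male and female. Xist, which silences an X chromosome in female cells, measured 7.14 in the Mt-KO lead pool and 12.63 in the saline pool, by the probe set that differed most. Eif2s3y, carried by the Y chromosome, measured 11.16 in the lead pool and 6.50 in the saline pool. Kdm5d and Uty, also Y-linked, measured 9.13 and 9.09 with lead against 6.07 and 6.23 with saline, each by the probe set that differed most. In the other 4 arrays both Xist and the Y-linked transcripts lay between these extremes, apart from Xist in the wild-type lead pool at 12.76. The 2 Mt-KO arrays thus held the highest and the lowest Y-linked signal of the series. For autosomal genes, lead and a difference in the sex make-up of the pools cannot be told apart in this pair. X and Y genes were left out of the counts, which does not remove such a difference from the autosomal genes. Among the 350 X-linked genes bright enough to be examined, the median difference was 0.04, and Xist was the only gene at least 1.5-fold apart.

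**Figure D1:**
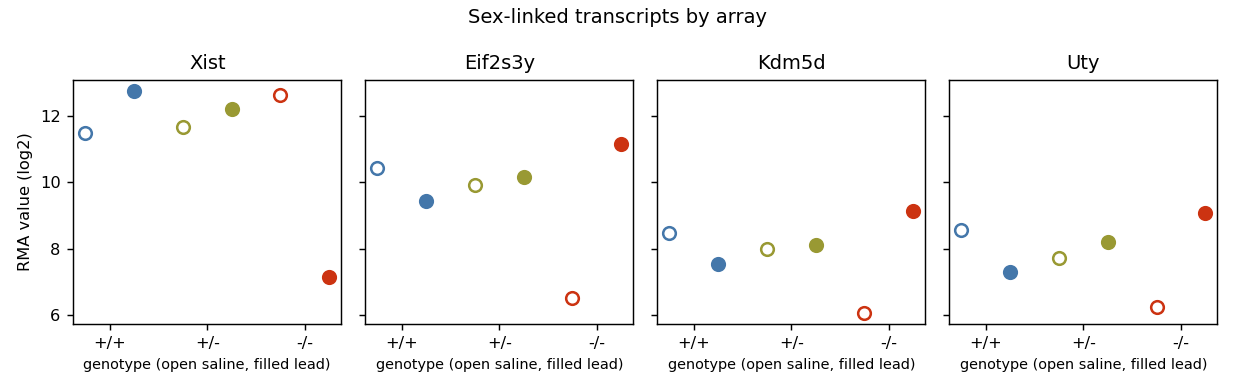
Deposited RMA values (log2) of Xist and 3 Y-linked genes on each of the 6 pooled arrays, with genotype on the horizontal axis, open circles for saline and filled circles for lead. In the Mt-KO pair the lead pool has the lowest Xist value, 7.14, and the highest Eif2s3y value, 11.16, and the saline pool the lowest Eif2s3y value, 6.50.

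The excess of 3' over 5' Gapdh signal, a sign of RNA breakdown, was 0.57 in the Mt-KO lead pool and 0.54 in the saline pool, against 0.68 to 1.19 in the other 4. For beta-actin it was 0.45 and 0.37, against 0.38 to 0.59 in the other 4, so the lead pool lay within their range. Neuronal Snap25 (13.84 with lead, 13.63 with saline), astrocytic Gfap (12.45 and 12.15) and myelin Mbp (13.95 and 13.61) were bright in both Mt-KO pools and the liver gene Alb was low (7.94 and 8.07). The difference drifted with brightness. Its median ran from -0.08 in the dimmest of 5 equal groups of genes to 0.07 in the brightest, and from -0.02 to 0.01 after quantile normalization, so a list of bright or dim genes is given below also relative to the 500 genes of nearest brightness.

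Few genes were far apart between the pools. With a limit of 1.5-fold, 8 genes were higher with lead (0.0760% of those examined) and 24 were lower (0.228%). A limit of 1.3-fold gave 59 higher genes (0.560%) and 149 lower genes (1.42%). By the same rule, 136 genes were higher and 36 lower in the wild-type pair, and 7 higher and 40 lower in the heterozygous pair. The quartiles of the difference in the Mt-KO pair were -0.09 and 0.09. The split between higher and lower genes depended on the scaling, with 143 higher and 122 lower with GC-RMA, and 16 higher and 9 lower with RMA without centring. All 8 higher genes were also at least 1.5-fold higher with GC-RMA and with PLIER, which read the same 2 arrays. Of the 24 lower genes only 6 were so with both, 6 were so with neither, and 2 had the opposite sign in at least 1 of them.

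**Figure D2:**
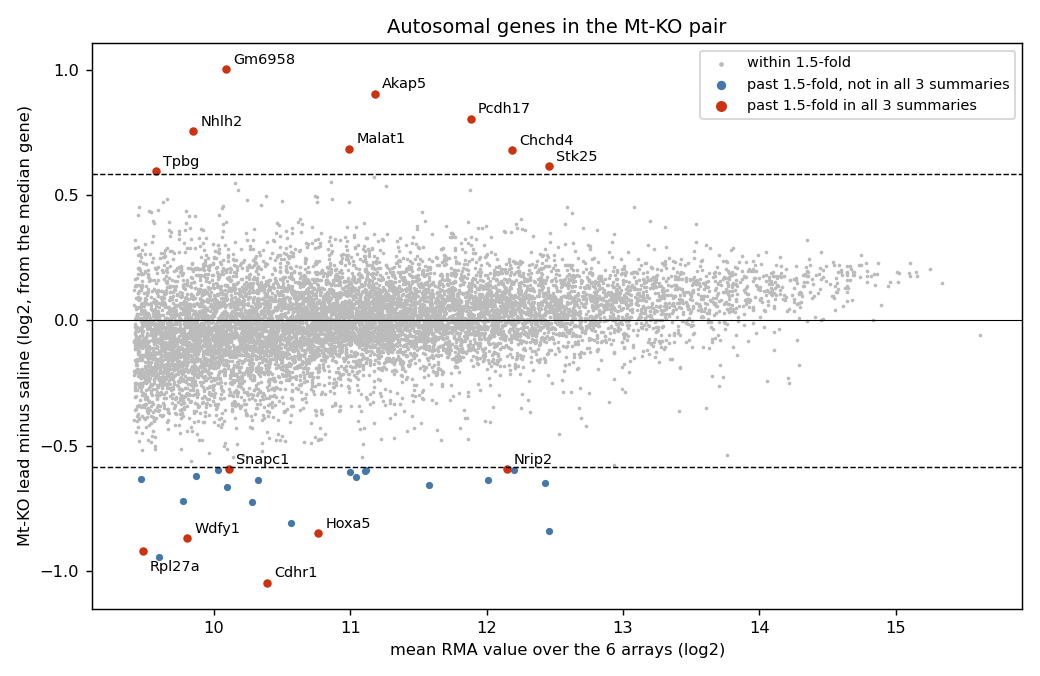
Lead minus saline difference in the Mt-KO pair (log2, relative to the median gene, vertical axis) against the mean RMA value over the 6 arrays (log2, horizontal axis) for each autosomal gene. Dashed lines mark 1.5-fold, red points the 14 genes past it with all 3 algorithms, blue points the other 18; the grey cloud tilts from a median of -0.08 in the dimmest of 5 equal groups to 0.07 in the brightest.

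The 8 higher genes included synaptic, mitochondrial and nuclear RNA genes. Gm6958, a predicted gene, measured 9.61 with lead and 8.52 with saline, 2.00-fold higher relative to the median gene (log2 differences of 1.49 with GC-RMA and 0.73 with PLIER). Its wild-type pools measured 11.11 with lead and 11.20 with saline and its heterozygous pools 9.86 and 10.23, so the Mt-KO saline pool was the lowest of the 6. Akap5, the anchoring protein that holds protein kinase A at the postsynaptic density, measured 11.55 with lead and 10.56 with saline, a difference of 0.90. In the wild-type pair it measured 10.95 and 11.31, and in the heterozygous pair 11.20 and 11.50, both lower with lead. The Mt-KO saline pool again was the lowest. A second bright Akap5 probe set gave -0.29, and the mean over its probe sets 0.26, so its direction depends on the probe set.

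Pcdh17, a protocadherin of axons and synapses, measured 11.98 with lead and 11.08 with saline in the Mt-KO pair, a difference of 0.81. It measured 12.13 and 12.46 in the wild-type pair and 11.92 and 11.73 in the heterozygous pair. Its second probe set gave 0.16. Malat1, a long noncoding RNA of nuclear speckles, measured 11.03 with lead and 10.25 with saline, a difference of 0.68, whereas in the wild-type pair it was lower with lead (11.04 against 12.04) and in the heterozygous pair near equal (10.87 against 10.74). Of the 7 Malat1 probe sets, 4 gave a positive and 3 a negative difference in the Mt-KO pair.

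Nhlh2, a helix-loop-helix factor of young neurons, was the only one of the 8 past 1.5-fold in another pair in the same direction. It measured 10.57 with lead and 9.72 with saline (0.76) in the Mt-KO pair, 9.82 and 9.26 in the wild-type pair, and 10.16 and 9.57 in the heterozygous pair. The lead value thus exceeded the saline value in all 3 pairs. Tpbg, a membrane glycoprotein that modulates Wnt signalling, had the same order, with 10.24 and 9.55 in the Mt-KO pair (0.60), 9.27 and 9.16 in the wild-type pair, and 9.82 and 9.42 in the heterozygous pair.

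Chchd4, the oxidoreductase that folds proteins imported into the mitochondrial intermembrane space, measured 12.46 with lead and 11.69 with saline, a difference of 0.68. Its other pairs differed by -0.09 (wild-type) and -0.01 (heterozygous). Stk25, a kinase of the Golgi apparatus that acts in neuronal polarity, measured 12.72 and 12.01, a difference of 0.61, against 0.24 and -0.18. For 6 of the 8 higher genes the saline pool of the Mt-KO pair was the lowest of the 6 arrays after each array was centred, and for 2, Nhlh2 and Tpbg, the lead pool was the highest.

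The 6 genes lower with all algorithms included a cadherin, a ribosomal protein and a Hox factor. Cdhr1, a cadherin of photoreceptors and of the projection neurons of the olfactory bulb, measured 9.77 with lead and 10.73 with saline, a difference of -1.05. It was lower with lead in the wild-type pair too (9.92 against 11.02) and higher in the heterozygous pair (10.66 against 10.24). Rpl27a, of the large ribosomal subunit, measured 9.80 and 10.63 (-0.92), against 8.99 and 9.51 in the wild-type pair and 9.02 and 8.92 in the heterozygous pair. Both Mt-KO pools exceeded the other 4 arrays, and the other 18 ribosomal protein genes examined lay between -0.11 and 0.20. The Rpl27a probe set was dim for its class, with a mean RMA value of 9.48 against a median of 14.10 over the ribosomal protein list. The only other Rpl27a probe set, dimmer still, gave -0.21.

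Wdfy1, a WD-repeat protein of endosomes, measured 9.78 with lead and 10.56 with saline, a difference of -0.87. It was the only gene past 1.5-fold whose second bright probe set was past it as well (-0.90). The heterozygous pair went the other way, 10.49 with lead and 9.27 with saline, and the wild-type pair measured 9.05 and 9.70. Hoxa5, a segment identity factor of hindbrain and spinal cord, measured 10.74 and 11.49 (-0.85), with 10.28 and 11.20 in the heterozygous pair and 10.39 and 10.49 in the wild-type pair. Its other, dim probe set gave -0.20 in the Mt-KO pair (-0.05 with GC-RMA) and 0.16 in the heterozygous pair, so the heterozygous direction depends on the probe set.

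Nrip2, which binds nuclear receptors, measured 12.46 with lead and 12.96 with saline (-0.59). The 3 pairs did not share a direction, since it was higher with lead in the wild-type pair (12.24 against 11.24) and lower in the heterozygous pair (11.35 against 12.63). Snapc1, a subunit of the complex that starts small nuclear RNA transcription, measured 9.74 and 10.24 (-0.59), 10.15 and 10.46 in the wild-type pair and 10.39 and 9.71 in the heterozygous pair. For 4 of these 6 genes the Mt-KO saline pool was the highest array after centring.

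**Figure D3:**
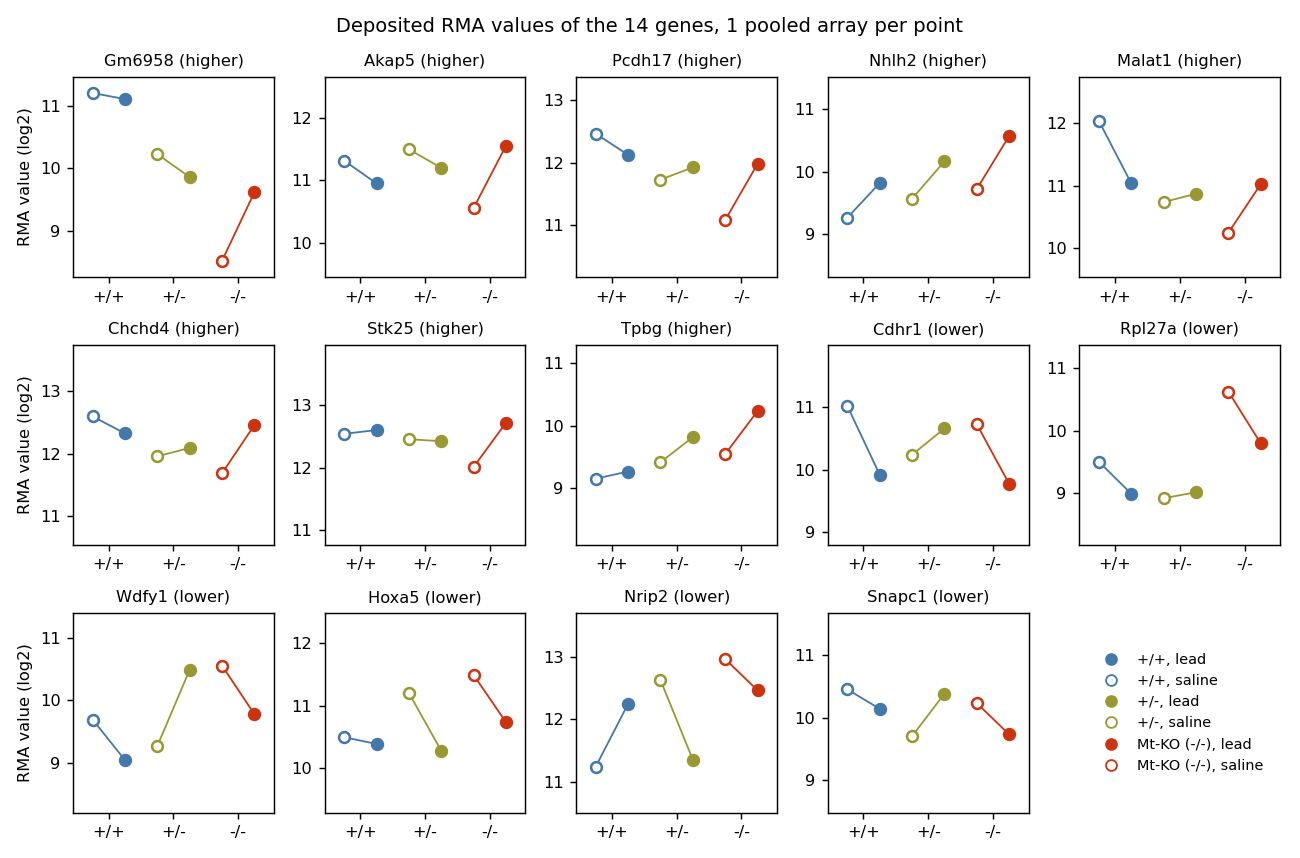
Deposited RMA values (log2, vertical axis, the same span in each panel) of the 14 genes past 1.5-fold with all 3 algorithms, for each genotype; open circles are saline pools, filled circles lead pools, and lines join the pools of a genotype. In 6 of the 8 higher genes the open Mt-KO circle is the lowest array after centring, and the Nhlh2 and Tpbg lines slope upward in all 3 genotypes.

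The other 18 lower genes depended on the algorithm. They are named here after their values were seen. Stap2, a signalling adaptor, differed by -0.94 with RMA, -0.78 with PLIER and -0.03 with GC-RMA. Hdac11, a histone deacetylase of brain, differed by -0.84 with RMA, -0.99 with GC-RMA and -0.44 with PLIER, and its second probe set by -0.09. Gss, which makes glutathione, the main small thiol of the cell, differed by -0.81, -0.52 with GC-RMA and -0.37 with PLIER. In the heterozygous pair Stap2, Hdac11 and Gss differed by -1.03, -1.25 and -0.71 with RMA. In the wild-type pair they differed by 0.18, 0.42 and 0.43. Men1 (-0.60) had the opposite sign with both other algorithms (0.07 with GC-RMA, 0.18 with PLIER), and Minar2 (-0.65) with PLIER (0.16). Of the 14 genes past 1.5-fold that had a second bright probe set, it had the same sign in 9. Over 3971 such genes the brightest and the second probe set differed by 0.11 in the median, with an SD of 0.19.

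Across all 10528 genes the Mt-KO differences resembled those of the heterozygous pair more than those of the wild-type pair. Pearson's r was 0.51 with the heterozygous pair and -0.31 with the wild-type pair, over genes, which are not independent, and with no array in common. The sign was shared by 69.3% and 37.9% of genes. The drift with brightness is common to these points, and relative to genes of like brightness r was 0.44 and -0.24. With GC-RMA it was 0.32 and -0.09.

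Genes of the cerebellar granule lineage stood out among the 48 gene lists by the size of their median. Of 24 listed genes, 15 were bright enough, and 13 of these lay above the median gene, against 50.0% of all genes examined. Their median was 0.40 in the Mt-KO pair, 0.59 in the wild-type pair and 0.24 in the heterozygous pair, and 8 of the 15 were at least 1.3-fold higher, against 0.560% of all genes. The same median was 0.39 relative to genes of like brightness, 0.46 with GC-RMA and 0.34 with PLIER. The list was written with earlier results of these data known.

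Several of these genes encode factors of neuronal precursors or of young neurons. Nhlh2 is described above. Zic5 measured 11.18 with lead and 10.59 with saline (0.50), with 0.51 from a second probe set and -0.04 from another, dim one. Insm1, a zinc finger factor of dividing neuronal precursors, measured 11.09 and 10.50 (0.49), with 0.55 from its second probe set. Zic2 measured 9.65 and 9.09 (0.47), Pax6 10.31 and 9.78 (0.44, with -0.13, -0.14, 0.07 and -0.08 from its other, dimmer probe sets), and Neurod1, which switches on granule cell differentiation, 12.92 and 12.40 (0.43). En2, the engrailed factor of midbrain and cerebellum, measured 10.14 and 9.63 (0.42) and Nhlh1 9.94 and 9.45 (0.40). The remaining members were Meis1 (0.29), Barhl1 (0.24), Zic4 (0.24), Zic1 (0.21), the synapse organiser Cbln1 (0.21) and Neurod2 (-0.03). Eomes, found in unipolar brush cells of cerebellum and in olfactory bulb projection neurons, went the other way, with 9.82 against 10.26 (-0.53). Of the 15 genes, 11 were above the median gene in all 3 pairs, against 11.6% of all genes. Since the list was written with earlier results of these data known, this count is a description only.

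Purkinje cell genes, markers of the other main cerebellar neuron, had a smaller shift. Of 11 examined, 8 lay above the median gene, with a median of 0.13, against 0.295 in the wild-type pair and 0.05 in the heterozygous pair. None was 1.3-fold higher, against 0.560% of all genes, a share too small for this count to set the list apart. Car8 (0.35) and Lhx1 (0.31) were the highest. Cell division genes, which granule precursors share with other dividing cells, lay above the median gene in 19 of 22, with a median of 0.08. Hmgb2, a chromatin protein of dividing cells, differed by 0.55 and the replication helicase subunit Mcm6 by 0.39. How much cerebellum each pool held was not measured apart from these genes, and its part in the result was not tested.

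Hox genes of hindbrain and spinal cord were all on the lower side. All 6 examined, of 21 listed, lay below the median gene with each algorithm, with a median of -0.22, the same as in the heterozygous pair (-0.22), whereas it was 0.27 in the wild-type pair. Relative to genes of like brightness the Mt-KO median was -0.16, and it was -0.14 with the mean over probe sets, -0.12 without centring and -0.11 without a brightness filter. These are dim genes, and the dimmest of 5 equal groups of genes had a median of 0.13 for wild-type pups and of -0.08 for both heterozygous and Mt-KO pups, the same signs as the Hox genes. Hoxa5 was the lowest, and the others were Hoxa7 (-0.31), Hoxc5 (-0.24), Hoxa3 (-0.20), Hoxc6 (-0.19) and Hoxb3 (-0.19). Their levels with lead and saline were 9.63 and 9.85 for Hoxa7 and 9.59 and 9.74 for Hoxc5. A second, dim Hoxa5 probe set gave -0.20.

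**Figure D4:**
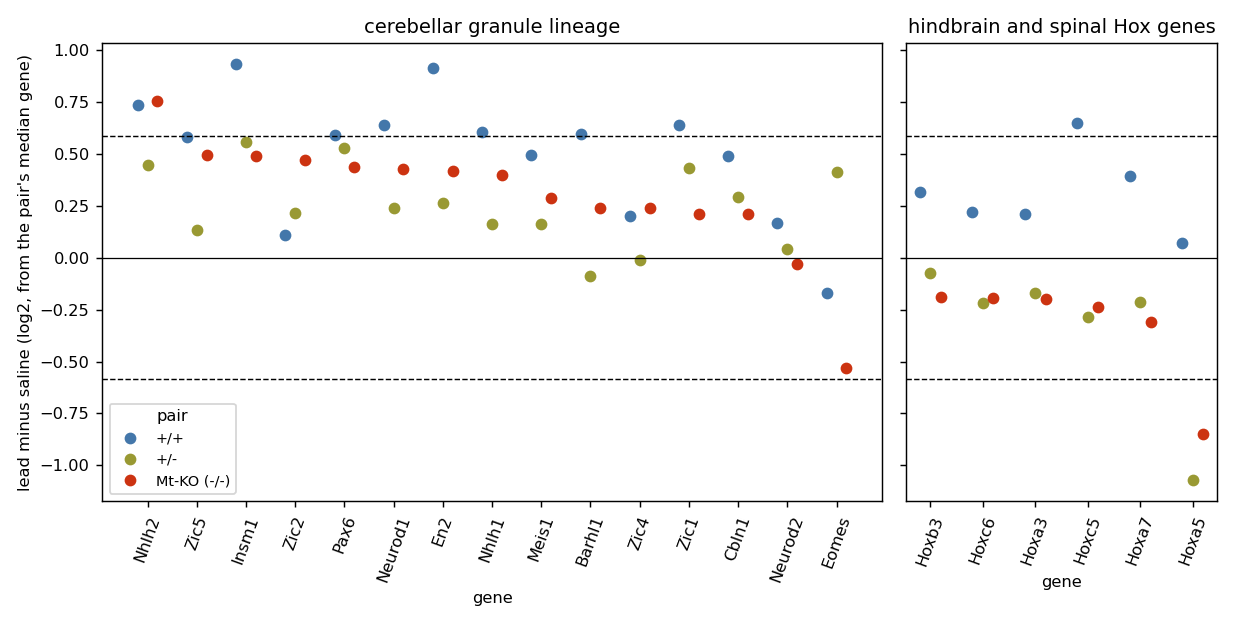
Lead minus saline difference (log2, relative to the median gene of each pair, vertical axis) of each examined gene of the cerebellar granule lineage, left, and of each Hox gene, right, in the 3 genotypes. Most granule genes lie above 0 in every genotype, Eomes at -0.53 in the Mt-KO pair being an exception, and the Hox genes lie below 0 in the Mt-KO and heterozygous pairs and above it in the wild-type pair.

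Among the other regional and cell type lists with at least 4 genes examined, medians lay closer to the median gene. The pituitary list had 3 genes examined, Pomc (-0.37), Tbx19 (-0.32) and Gh (-0.20), all lower with lead. Their median was -0.32, or -0.06 with GC-RMA, against 0.27 in the wild-type pair and 1.22 in the heterozygous pair. Thalamic genes had a median of 0.07, with Tcf7l2, a Wnt effector of thalamic neurons, at 0.57 (11.28 with lead, 10.62 with saline) and Lhx9 at 0.42. Tcf7l2 was lower with lead in the wild-type pair (-0.72). Its other probe sets gave 0.26, 0.21 and -0.23 in the Mt-KO pair, and those of Lhx9 0.34, -0.09 and -0.10. Cortical excitatory neuron genes had a median of 0.11 and striatal genes 0.05, or 0.05 and 0.01 relative to genes of like brightness. Astrocyte genes lay above the median gene in 15 of 19, with a median of 0.12 that was 0.04 relative to genes of like brightness, and their highest member was the glutamate transporter Slc1a3 (0.37).

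In the oligodendrocyte lists the precursor factor Olig2 differed by 0.37 and the tight junction gene Cldn11 of myelin by 0.45, while Sox10 differed by -0.29 and the medians were 0.08 for precursors and 0.05 for myelin. Microglial genes had a median of -0.01, which was 0.29 with GC-RMA, and endothelial genes had one of -0.01. Pericyte and smooth muscle genes lay below the median gene in 10 of 10, with a median of -0.17 and Acta2, the actin of smooth muscle, lowest at -0.41. The median shrank to -0.06 with GC-RMA, with 3 of the 10 above the median gene, to -0.12 relative to genes of like brightness, with 1 above, and to -0.02 with the mean over probe sets. Choroid plexus genes had a median of -0.13, while Ttr, the transthyretin of that tissue, lay at 0.26. Red blood cell genes had a median of -0.02.

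Genes known to answer metals, oxidants and misfolded protein formed 13 lists, with 178 distinct genes examined. None was 1.5-fold apart, against 0.0760% higher and 0.228% lower of all genes, and 1, Hspa2, was 1.3-fold higher (0.52), against 0.560% of all genes, so these counts show nothing particular to the lists. Hspa2 is a heat shock protein made in testis and brain without stress. The inducible Hspa1b differed by -0.12. NRF2 target genes had a median of 0.03, with catalase (Cat) highest at 0.23 and the glutathione synthesis genes Gclc at 0.19 and Gclm at 0.13. Gss, which also makes glutathione but was on none of these lists, went the other way (-0.81 with RMA, -0.37 with PLIER). Genes of the zinc transporter list had a median of 0.03, with the importers Slc39a13 and Slc39a14 lowest, both at -0.32.

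Copper handling genes lay below the median gene in 10 of 10, though by little, with a median of -0.04. Sco2, which delivers copper to cytochrome oxidase, differed by -0.35, the copper enzyme Sod1 by -0.27 and the copper chaperone Atox1 by -0.23. Relative to genes of like brightness 3 of the 10 lay above, and with GC-RMA 2. Heme synthesis genes had a median of -0.02, with Alad, the enzyme that lead is known to block, at 0.09 and Cpox at 0.28. Immediate early genes, which follow neuronal activity, had a median of 0.00, from Egr4 at -0.24 to Bdnf at 0.14.

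Endoplasmic reticulum chaperones had a median of 0.10, or 0.03 relative to genes of like brightness, and ATF4 stress genes a median of 0.00. Genes of p53 and apoptosis had a median of 0.07, with Sesn1 at 0.31 and the caspase Casp9 at -0.34. Iron genes had a median of -0.01, and glucocorticoid response genes, which injection stress can raise, of 0.04, with the kinase Sgk1 highest at 0.32. Inflammatory mediators had a median of -0.05. Medians this close to 0 can turn with the algorithm, as those of the endoplasmic reticulum chaperones (-0.05 with GC-RMA) and ATF4 genes (0.10 with GC-RMA) show.

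The synapse and signalling lists held 107 distinct genes examined. None was 1.3-fold apart, against 0.560% higher and 1.42% lower of all genes, a share too small for this count to set the lists apart. They ran from -0.26 for the vesicle protein Sv2a to 0.37 for the synaptotagmin Syt4. Among glutamate receptors the AMPA receptor subunit Gria1 differed by 0.33 and the kainate receptor subunit Grik3 by 0.29. The NMDA receptor subunit Grin2b, a subunit of the young brain, differed by 0.08. The postsynaptic scaffold Dlg4 (PSD-95) differed by -0.22 and the calcium channel Cacna1c by -0.23, while the calcium-dependent kinase subunit Camk2d differed by 0.33.

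Growth and metabolism lists hold many bright genes, and their values depended on the scaling. Respiratory chain genes lay above the median gene in 20 of 29, but in 5 of 29 relative to genes of like brightness and in 4 of 29 with GC-RMA, so their direction flips with the scaling. Ribosomal protein genes had a median of 0.08, or -0.01 relative to genes of like brightness. Splicing factors and nuclear RNAs lay above the median gene in 24 of 28, and in 21 of 28 relative to genes of like brightness, with medians of 0.14 and 0.09; Malat1 (0.68) and Srsf1 (0.34) were highest, and Neat1, another nuclear RNA, lay at -0.28. Of the 45 lists with at least 4 genes examined, 36 had a median within 0.1 of the median gene, and 40 had one relative to genes of like brightness.

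**Figure D5:**
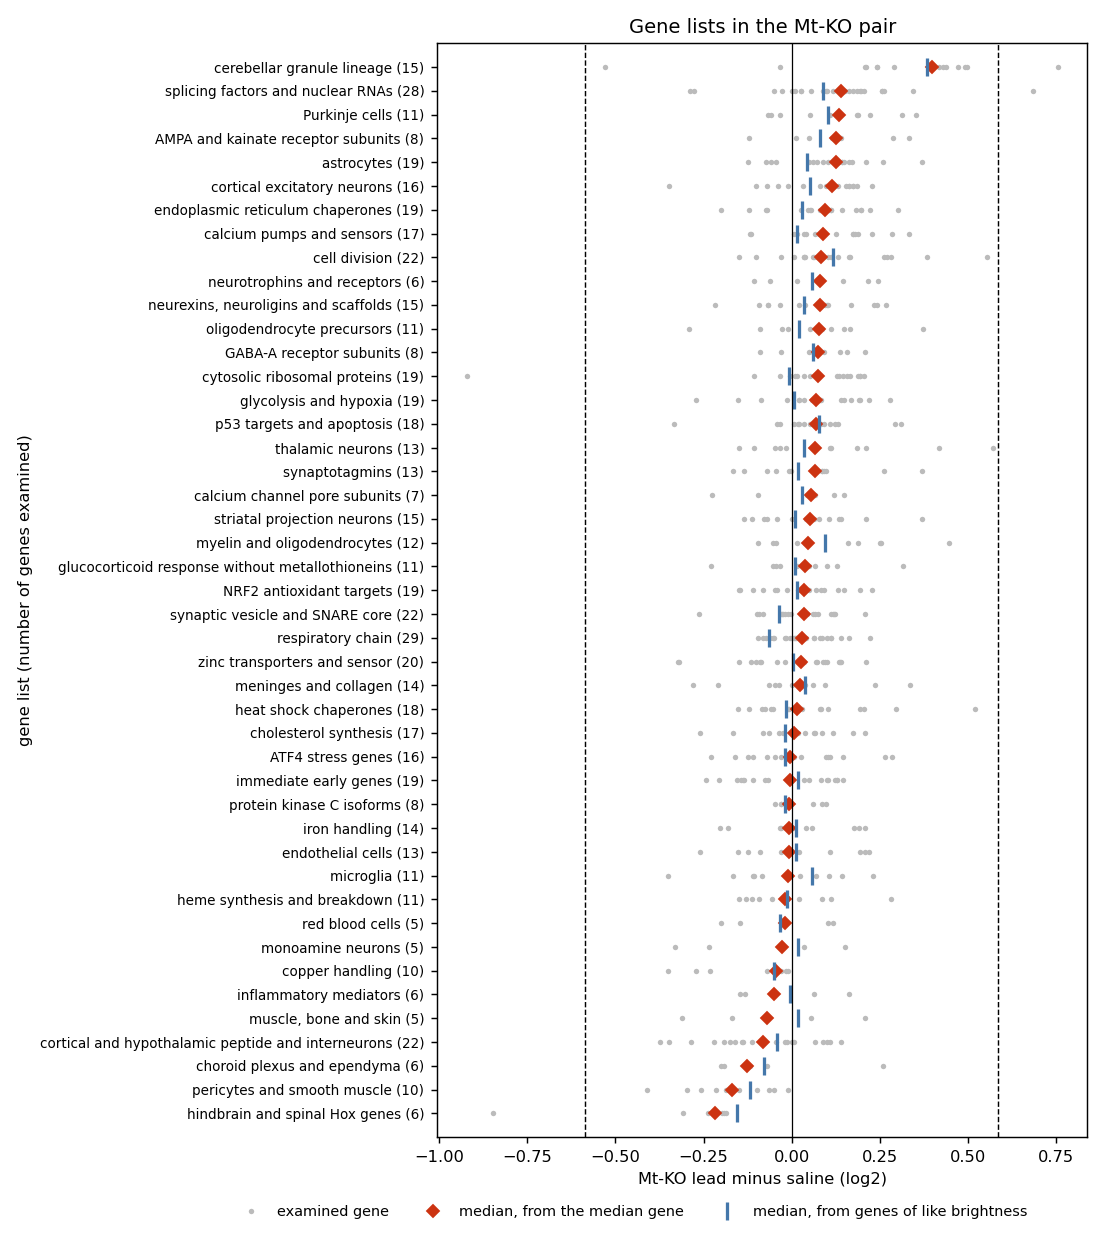
Lead minus saline difference in the Mt-KO pair (log2, horizontal axis) for the examined genes of 45 gene lists (rows, number of genes in parentheses); grey points are genes, red diamonds list medians, and blue bars medians relative to genes of like brightness. The cerebellar granule lineage has the highest median, 0.40, the Hox genes the lowest, -0.22, and 36 of the 45 lists lie within 0.1 of the median gene.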

How the data were processed

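RNA pools of 5 pups, 1 for each genotype and treatment, gave 6 arrays. Partek, RMA, GCRMA and PLIER are named in the submitters' processing notes. Versions of these tools are not given in the sources used here. Log2 values deposited by the authors came from RMA and GC-RMA. From PLIER the authors deposited linear intensities, to which 16 was added here before log2. The labelling kit named in the labels is one for whole-transcript arrays, whereas the probe sets are those of a 3' array. The number of arrays limits the precision.

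Of 45101 probe sets, the platform annotation gave 1 symbol for 34958, several for 932 and none for 9211, and 34754 matched the GRCm38.p6 gene table by gene identifier. For each of 18194 genes the brightest probe set with 1 symbol was kept. Of the 10916 genes in the upper 60% by mean RMA value, 10528 were autosomal and were examined. Differences were taken within a pair and centred on its median gene.

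With 1 array a side no test was made. Genes named are those at least 1.5-fold apart with RMA, GC-RMA and PLIER in the same direction (up to 15 each way, of which 8 and 6 existed), up to 4 members of each list by size, the metallothioneins and the sex-linked genes. Named beyond this rule, after their values were seen, are the remaining members of short lists and genes with values of interest to a list. The members and gene lists were chosen with earlier results of these data known. Alternatives were GC-RMA, PLIER with 16 or 64 added, quantile normalization, no centring, the mean over probe sets, other brightness filters and fold limits, and X and Y genes included. Centring on the running median of 500 genes of like brightness was added after seeing the data. The scripts were tested on simulated data.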

Additional observations from a re-analysis of the deposited data

Results flagged for a closer look

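Malat1 was 0.68 higher with lead in the Mt-KO pair and stood at -0.82 in the wild-type pair (log2, relative to each pair's median gene), so the pairs differed from the median gene in opposite directions, each by at least 1.5-fold. Wdfy1 stood at -0.87 in the Mt-KO pair and at 1.07 in the heterozygous pair. Nrip2 stood at -0.59 in the Mt-KO pair and at 1.18 in the wild-type pair. These values come from the brightest probe set of each gene. The second bright probe set gave -0.09 in the Mt-KO pair and -0.64 in the wild-type pair for Malat1, the same sign, and the mean over probe sets gave 0.23 in the Mt-KO pair. For Nrip2 the second probe set gave -0.17 and the mean -0.32 in the Mt-KO pair. With 1 array in each group the differences between pairs were not tested.

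The Y-linked genes lay outside the autosomal comparison. Eif2s3y differed by 4.57 between the Mt-KO lead and saline pools with its brightest probe set. By the probe set that differed most, which is not the brightest, Kdm5d differed by 2.97 and Uty by 2.77, and their brightest probe sets gave 0.40 and 0.16. All of these were higher with lead, whereas the differences of Eif2s3y in the other pairs were -0.82 (wild-type) and 0.07 (heterozygous).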

How the results depend on the processing

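No paired analysis was possible because the Mt-KO comparison has 1 array a side and its values come from no test, and for the same reason no array could be left out. The count of genes at least 1.5-fold higher with lead was 8 and of those lower 24 as reported. With GC-RMA the counts were 143 higher and 122 lower, of which 8 and 13 were among those reported. With PLIER they were 12 and 63 with 16 added, and 10 and 45 with 64 added. Without centring on the median gene they were 16 and 9, so the split between higher and lower genes turned over. Averaging the probe sets of a gene gave 6 higher and 3 lower, of which 4 and 3 were among those reported. Without a brightness filter there were 19 higher and 20 lower, and in the upper 40% of genes 5 and 13. The limit of 1.3-fold gave 59 and 149, and that of 2-fold gave 1 and 1. Quantile normalization gave 10 and 22, centring on genes of like brightness 8 and 22, and inclusion of X and Y genes 9 and 25, all within 1.5 times of the reported counts. Gene lists with a median above the median gene numbered 29 of 45. Without centring they numbered 42, with PLIER 36, and in the upper 40% of genes, where only 38 lists gave a median, 26. This count stayed within 1.5 times under each alternative run, but a total of 45 lists left it little room to rise further. Of the 14 genes named for their size, Nhlh2, Gm6958, Chchd4 and Cdhr1 were past 1.5-fold in the same direction under all 7 alternatives computed for them, and the others under 3 to 6.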

Other observations

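Genes of olfactory bulb projection neurons were looked up after Cdhr1 and Eomes had been seen to be lower with lead in the Mt-KO pair. Tbx21, a factor of mitral and tufted cells, measured 7.14 with lead and 7.67 with saline, a difference of -0.62, but was too dim to be examined. Doc2g measured 9.02 and 9.26 (-0.33) and was below the brightness limit too. Tbr1 (0.23), Reln (0.10) and Slc17a7 (0.03), which those cells share with other neurons, lay above the median gene, though Reln stood at -0.15 with GC-RMA. Lhx2 (-0.04) and the dim Nmb (-0.23) lay below it. In the wild-type pair Tbx21 stood at -0.51 and Doc2g at 0.12, and in the heterozygous pair at -0.02 and 0.03. How much olfactory bulb each pool held was not measured.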
